A study of Mus musculus with 2 samples.

Results

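The genes described are 10 genes of the pigment cell lineage, Pmel, Mlana, Dct, Tyrp1, Tyr, Mitf, Sox10, Slc45a2, Oca2 and Gpr143, out of 31053 genes in the deposited matrices. They were chosen by symbol and all 10 were found. Their molecules were counted in melanoma cells, which are droplets with at least 20 UMIs (unique molecular identifiers, 1 per captured RNA molecule) of Pmel, Mlana and Dct together, and in leukocytes. This rule gave 409 melanoma cells of 5989 kept cells in the control library and 591 of 6986 in the treated library. The leukocytes numbered 5477 and 6340.

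Tumours were grown from B16-F10 cells, a pigmented mouse melanoma line, under the skin of the right flank of 10-week-old female wild-type C57BL/6 mice. One group of mice was a control and the other received an OX40 agonist, which acts on a costimulatory receptor of activated T cells. Tumours of both groups were dissociated, enriched for leukocytes on Ficoll and sorted as CD45+ DAPI- cells, and 1 library of 10x Genomics 3′ chemistry was sequenced per group. Dose, schedule, the control treatment and the number of mice per library were not stated in the labels. The protocol defines live cells as DAPI-, which was followed here, and the design text as DAPI+. Melanoma cells lack CD45, so those counted here passed a sort meant to leave them out, and the other melanoma cells of the tumours were not measured.

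Pigment is made in melanosomes, organelles of the melanocyte lineage. Tyr is the rate-limiting enzyme of melanin synthesis, Tyrp1 and Dct act after it, Pmel forms the fibrils on which melanin is laid down, and Slc45a2, Oca2 and Gpr143 are melanosome membrane proteins. Mitf is the master transcription factor of the lineage and Sox10 acts upstream of it. Several of these proteins, among them Pmel, Mlana, Tyr, Tyrp1 and Dct, are antigens that T cells recognise on melanoma cells.

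Mitf binds the E-box CATGTG, and with a leading T this is the M-box TCATGTG known from pigment gene promoters. RefSeq promoter windows (GRCm38.p6, 250 bases before a start and 50 after it) were available for 5 members. The M-box, searched on both strands, was in the windows of 3 of them, Tyr, Tyrp1 and Dct, while 3.78% of 32817 windows of this length hold it. Every M-box match also contains CATGTG, which on its own was in 14.2% of windows. Oca2 held CATGTG without the leading T, and the windows of 3 Mitf starts held neither. The stretches of 30 bases around the 4 M-box matches follow on the strand of the gene, with the match in capitals. They are shown because the levels of these 3 enzyme genes are compared below. The position given is that of the first base of the match, and the printed stretch begins further upstream. Positions count back from the start, the base before it being -1.
Tyr, from position -22 (chr7:87493516-87493545, minus strand): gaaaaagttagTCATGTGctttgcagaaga
Tyrp1, from position -47 (chr4:80834155-80834184, plus strand): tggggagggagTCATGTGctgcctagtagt
Dct, from position -151 (chr14:118052379-118052408, minus strand): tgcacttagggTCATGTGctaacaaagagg
Dct, from position -232 (chr14:118052460-118052489, minus strand): cttggctgggaCACATGAgcccaataaaga
In all but the last the match reads 5′ to 3′ as TCATGTG, and the last is the same motif on the opposite strand. The 250 bases before the start are shown for Tyr and Dct, the enzyme genes with the lowest and the highest level of the 3 in these cells, with matches again in capitals.
Tyr, 250 bases before the start (chr7:87493513-87493762, minus strand): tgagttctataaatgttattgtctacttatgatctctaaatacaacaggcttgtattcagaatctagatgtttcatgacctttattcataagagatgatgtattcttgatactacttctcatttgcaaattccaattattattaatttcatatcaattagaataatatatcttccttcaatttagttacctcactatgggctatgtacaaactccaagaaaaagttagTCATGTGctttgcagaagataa
Dct, 250 bases before the start (chr14:118052247-118052496, minus strand): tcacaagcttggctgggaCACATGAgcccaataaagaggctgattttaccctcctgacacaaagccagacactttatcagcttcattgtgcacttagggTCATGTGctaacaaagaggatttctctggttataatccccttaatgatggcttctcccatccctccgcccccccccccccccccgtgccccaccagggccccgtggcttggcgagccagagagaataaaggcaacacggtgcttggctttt
These are sequence matches. Binding of Mitf was not measured.

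The control library held 114026695 UMIs in 7187 deposited barcodes and the treated library 118059108 in 8569. Medians were 8927 and 7309 UMIs per barcode, and 12 of the barcodes kept in each library were shared between them. Melanoma cells were deep, with medians of 73960 and 65937 UMIs, against 9110 and 7212 in leukocytes. By share of kept cells, the melanoma cells came to 6.83% in the control library (95% Clopper-Pearson interval 6.20 to 7.50) and 8.46% in the treated library (7.82 to 9.14), shares that the sort can set. They held medians of 993 and 829 UMIs of the 3 rule genes. Just inside the threshold, at 20 to 29 UMIs, were 10 control and 13 treated cells, and just outside, at 10 to 19, were 33 and 22. Of 10 melanoma markers beyond the rule genes, 9 were at 10 CPM (UMIs of a gene per 1000000 UMIs of the cells) or more in both libraries. Fibroblast, endothelial, mast cell and erythroid markers stayed below 10 CPM. Leukocyte RNA was present in some of these droplets: 64 control and 36 treated cells had over 5 UMIs per 10000 of 12 leukocyte genes, whose median in leukocytes was 151 and 140 per 10000.

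In the melanoma cells the pigment genes were abundant and differed little between libraries. With 1 library per group there is no test, and the intervals are exact Poisson 95% intervals that cover counting error only. They take every UMI as independent, so variation between cells is not in them. A 3′ library counts 1 UMI per molecule whatever the transcript length, so levels of different genes compare molecules without scaling by length. The 10 genes together took 16225 CPM in control and 15673 CPM in treated melanoma cells, a ratio of 0.966 (0.962 to 0.970). None of the 9 members at 10 CPM or more moved by 1.5-fold, where 1.35% of the 7839 genes measured did (log2 ratios after adding 10 CPM to both levels). Of these 9, 2 were higher and 7 lower in the treated library, where 59.9% of all genes measured were higher and 40.1% lower by any amount. The median log2 ratio over the 9 was -0.02, against 0.03 over all genes measured.

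The structural protein Pmel (chr10:128704195-128720238, GENCODE M21 on GRCm38) had 4702 CPM (4678 to 4726) in control and 4357 CPM (4336 to 4377) in treated melanoma cells. Its ratio of 0.927 (0.920 to 0.933) was the lowest of the 10. Cdk2 and Dgka overlap Pmel on the opposite strand, and whether strand was used in counting was not stated. Mlana (chr19:29697824-29708634), a melanosome protein that associates with Pmel, had 2941 and 2924 CPM and a ratio of 0.994 (0.986 to 1.00). Both antigens were among the most abundant RNAs of these cells, at rank 17 and 46 of all genes in the control library. Pmel, Mlana and Dct also define the melanoma cells, so their summed level has a lower bound by construction.

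Among the enzymes, Dct (chr14:118012790-118052244), dopachrome tautomerase, ranked 10 among all genes of the control melanoma cells and 8 among those of the treated cells. It had 5645 and 5444 CPM, a ratio of 0.964 (0.958 to 0.970). Tyrp1 (chr4:80834123-80851719) had 1966 and 1942 CPM, a ratio of 0.988 (0.977 to 0.998). Tyr (chr7:87424771-87493512), tyrosinase itself, was far lower, at 88.3 CPM (85.0 to 91.6) in control and 117 CPM (113 to 120) in treated cells. Its ratio of 1.32 (1.26 to 1.39) was the highest of the 10.

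Of the regulators, Mitf (chr6:97807052-98021349) had 342 CPM (335 to 348) in control and 376 CPM (370 to 382) in treated cells, a ratio of 1.10 (1.07 to 1.13). Sox10 (chr15:79154908-79165240) had 130 and 129 CPM, a ratio of 0.994 (0.953 to 1.04), which is within counting error. Among the membrane proteins, Slc45a2 (chr15:11000721-11029233) had 381 and 356 CPM, a ratio of 0.933 (0.910 to 0.956). The receptor Gpr143 (chrX:152781921-152808646) had 24.6 and 23.9 CPM, a difference within counting error. Oca2 (chr7:56239760-56536518), a melanosomal anion transporter, had 5.66 and 5.76 CPM from 177 and 228 UMIs, below the minimum for a comparison. From high to low the control levels ran Dct, Pmel, Mlana, Tyrp1, Slc45a2, Mitf, Sox10, Tyr, Gpr143 and Oca2. In the treated library Mitf lay above Slc45a2, and no interval of neighbouring genes overlapped in either library.

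**Figure D1:**
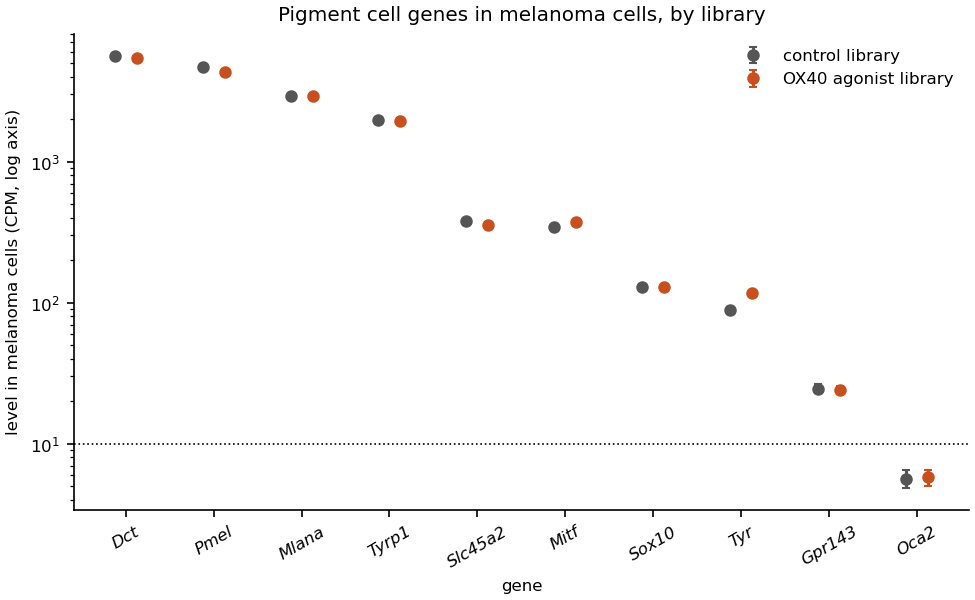
Level of each of the 10 genes in melanoma cells (CPM, log axis) in the control library (grey) and the OX40 agonist library (orange); bars are exact Poisson 95% intervals, and the dotted line is the minimum of 10 CPM. Both points lie close together for every gene, and the widest gap is at Tyr, with 88.3 and 117 CPM.

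Cells differed from each other more in Tyr than in the other enzymes. Cells were thinned to 10000 UMIs each, with 32 control and 26 treated shallower cells left out, and values are means over all possible draws of UMIs. A Tyr UMI was then in 43.0% of 377 control cells (37.9 to 48.1) and in 52.7% of 565 treated cells (48.5 to 56.9). Without thinning, 64.3% and 75.6% had one. In contrast Pmel was in 99.9% of thinned cells in both libraries and Tyrp1 in 99.3%. The variance beyond counting noise, divided by the squared mean, was 1.16 and 0.839 for Tyr, 0.392 and 0.504 for Mitf, 0.242 and 0.260 for Tyrp1, and 0.126 and 0.131 for Dct. Dct was thus the most even of the enzymes and Tyr the most uneven. Dct and Pmel are rule genes, so cells poor in them could be left out, which does not hold for Tyr and Tyrp1. How far this trims the spread of Dct and Pmel was not tested. Among lower-level members outside the enzymes, Gpr143 (0.651 and 0.450) lay below Tyr, at a thinned mean of 0.245 and 0.235 UMIs per cell. Oca2 (1.93 and 3.41) lay above Tyr, at a thinned mean of 0.0534 and 0.0549. Pmel ranged from 18.6 per 10000 UMIs at the 10th percentile to 77.8 at the 90th in control cells, and from 19.9 to 70.9 in treated cells.

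The structural and enzyme genes rose and fell together from cell to cell, and Sox10 did not follow them. Correlations were taken over cells of log UMIs per 10000, as a description of 409 and 591 cells that share a library and differ in depth. Pmel and Tyrp1 had r of 0.70 in control and 0.68 in treated cells, and Pmel and Dct 0.59 and 0.72. Dct and Tyrp1 had 0.61 in both. Tyr was less tied to these 3, with r between 0.22 and 0.27. Mitf had 0.23 and 0.21 with Tyr, 0.13 and 0.21 with Pmel, and 0.29 and 0.38 with Sox10. Sox10 with the summed members had -0.00 and 0.04. Sox10, Mitf and Slc45a2 also varied with the depth of the cell (r from 0.24 to 0.37 with log total UMIs), and why was not tested.

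**Figure D2:**
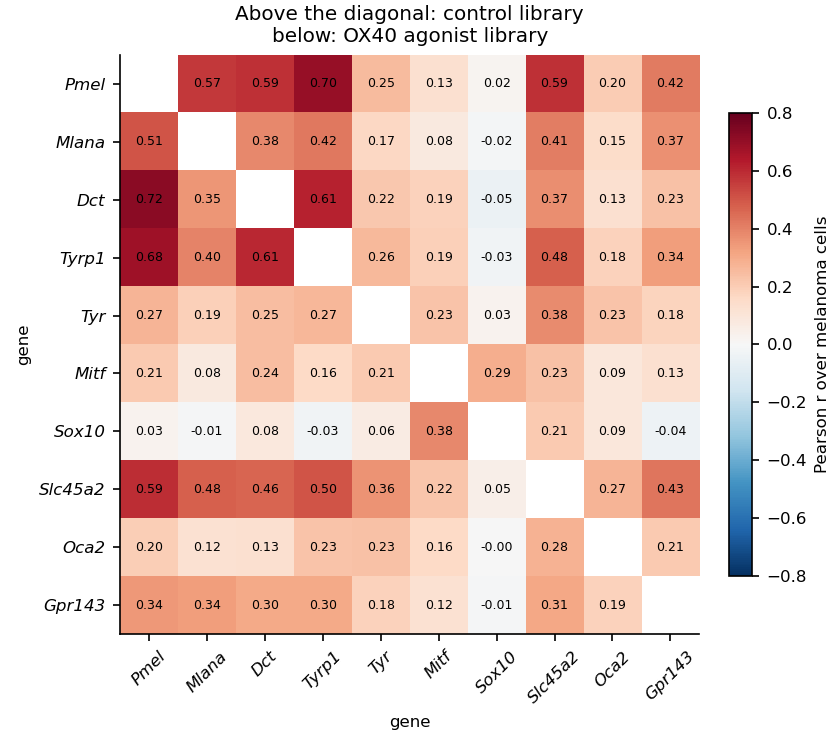
Pearson r between pairs of the 10 genes over melanoma cells, control library above the diagonal (409 cells) and OX40 agonist library below it (591 cells). Pmel, Mlana, Dct, Tyrp1 and Slc45a2 form a block of positive values, with Pmel and Tyrp1 at 0.70 and 0.68, and the values of Sox10 are near 0 except with Mitf and, in the control library, with Slc45a2 (0.21).

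Of 2813 other genes at 50 CPM or more in both libraries, 8 were most like the summed members from cell to cell. Bace2, a protease known to cleave Pmel, came first (r of 0.62 in control and 0.63 in treated cells). It was followed by Ptgds (0.58 and 0.57), the melanosomal exchanger Slc24a5 (0.56 and 0.62), Cd63 (0.55 and 0.56), a tetraspanin that takes part in Pmel sorting, and the channel Trpm1 (0.56 and 0.52). Gpnmb, a Pmel relative, Igsf8 and the lysosomal protease Ctsd had lower values, from 0.46 to 0.52. Among the most opposed genes were Hapln1 (-0.30 in both) and Anxa1 (-0.26 in control and -0.27 in treated cells). Slc24a5, Cd63, Trpm1, Gpnmb, Ptgds and Ctsd also stand in the wider pigment list below.

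The melanoma cells were then ordered by the summed UMIs of 19 hypoxia response genes, none of which is a pigment gene. Ldha weighed most in this sum, at 2930 CPM in control and 2389 CPM in treated melanoma cells. Car9 had 266 and 178 CPM, Pgf 150 and 83.3 CPM, and Vegfa 108 and 80.2 CPM. The cells were split at the pooled median of 44.7 UMIs per 10000 into high-hypoxia and low-hypoxia cells. These are ranges of a score and not cell types, and 30 control and 45 treated cells lay within 10% of the boundary. The control library had 253 high-hypoxia and 156 low-hypoxia cells and the treated library 247 and 344. High-hypoxia cells were shallower, with medians of 70019 against 85842 UMIs in control and 58318 against 73860 in treated cells.

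Pmel, Dct and Tyrp1 were higher in high-hypoxia cells of both libraries, by about the same factor. Pmel went from 4131 CPM in low-hypoxia to 5114 CPM in high-hypoxia control cells and from 4006 to 4950 CPM in treated cells, ratios of 1.24 (1.23 to 1.25) and 1.24 (1.22 to 1.25). Dct went from 5063 to 6067 CPM and from 5016 to 6168 CPM, ratios of 1.20 (1.19 to 1.21) and 1.23 (1.22 to 1.24). Tyrp1 went from 1715 to 2147 CPM and from 1783 to 2210 CPM, ratios of 1.25 (1.23 to 1.27) and 1.24 (1.22 to 1.26). These 3 genes lay on the same side in both libraries and did not reach 1.5-fold. The 10 genes summed were 1.15 times (1.14 to 1.16) higher in high-hypoxia control cells and 1.16 times (1.15 to 1.16) higher in treated ones.

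The regulators and Mlana lay slightly lower in high-hypoxia cells. Mitf went from 354 to 333 CPM in control and from 392 to 348 CPM in treated cells, ratios of 0.942 (0.907 to 0.979) and 0.887 (0.857 to 0.918). Sox10 had ratios of 0.863 (0.811 to 0.919) and 0.889 (0.838 to 0.942). Mlana, although a melanosome protein like Pmel, had 0.967 (0.954 to 0.979) and 0.939 (0.927 to 0.950). Slc45a2 had 0.941 (0.908 to 0.976) in control and 1.00 (0.970 to 1.04) in treated cells, and Gpr143 and Oca2 were within counting error in both. None of the members measured moved by 1.5-fold in both libraries, where 2.14% of 7774 genes were higher and 2.59% lower by that much. By any amount, 29.4% of all genes were higher in both libraries and 57.6% lower in both, with medians over all genes of -0.09 and -0.08 (log2). In control cells without a Ptprc UMI the difference of the summed members was smaller, 0.13 against 0.20 on the log2 scale, and in treated cells it was 0.21 in either case.

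Tyr was higher in high-hypoxia cells of the treated library and slightly lower in those of the control library. In control cells it had 93.6 CPM in low-hypoxia and 84.4 CPM in high-hypoxia cells, a ratio of 0.902 (0.836 to 0.973). That interval leaves out variation between cells. After thinning, 43.9% (35.5 to 52.3) of low-hypoxia and 42.4% (36.1 to 49.1) of high-hypoxia control cells had a Tyr UMI. In treated cells Tyr had 105 and 137 CPM, a ratio of 1.30 (1.23 to 1.38). The difference between these log2 ratios was 0.49, and 19 of 7774 genes, Tyr among them, had a difference at least as large in either direction. Over 4 ranges of hypoxia gene level, with boundaries at the pooled quartiles, Tyr in control cells had 89.5, 96.6, 92.4 and 77.6 CPM from the lowest to the highest range. In treated cells it had 102, 108, 139 and 133 CPM. The libraries were thus close in the lowest range and furthest apart in the highest. When each library was split at its own median, the log2 ratios were -0.41 in control and 0.31 in treated cells. With cells thinned to 10000 UMIs the control value was -0.06.

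**Figure D3:**
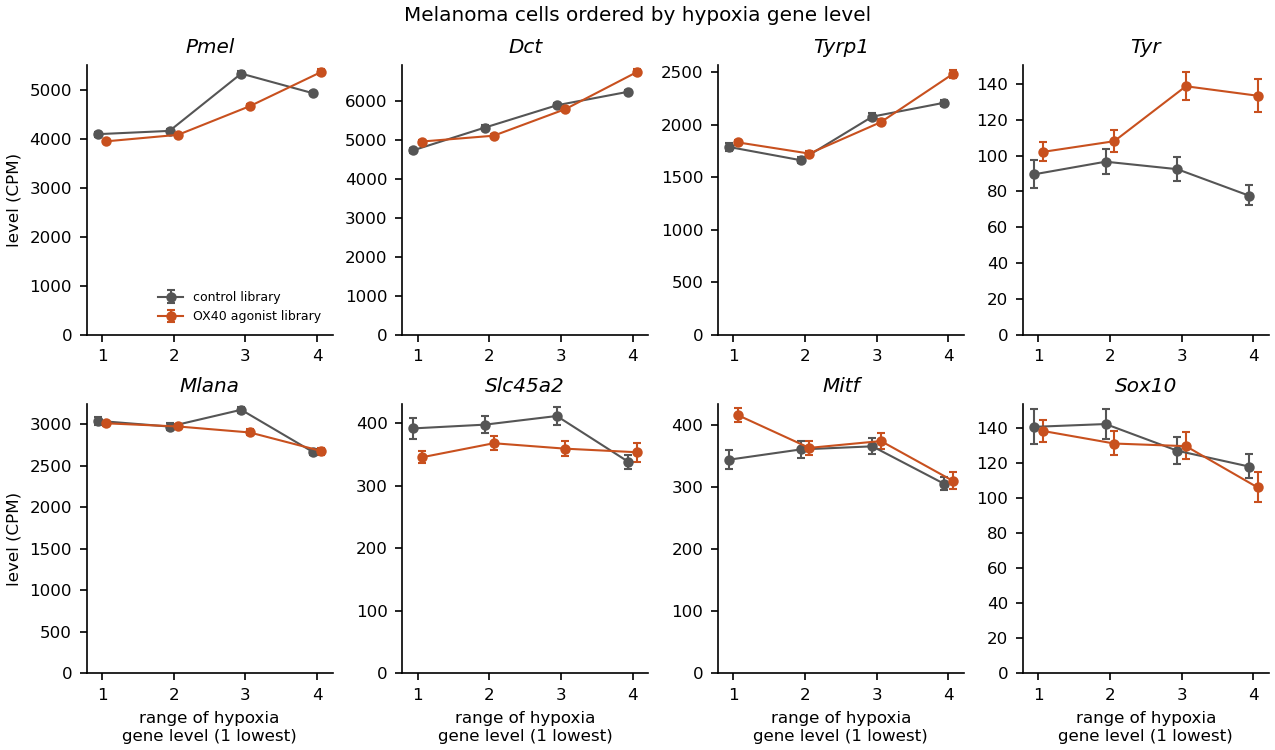
Level (CPM) of 8 of the genes in melanoma cells over 4 ranges of hypoxia gene level (1 the lowest), control library in grey and OX40 agonist library in orange; bars are exact Poisson 95% intervals. Pmel, Dct and Tyrp1 are higher at the right in both libraries, and Tyr is higher at the right only in the treated library, at 133 against 77.6 CPM in the highest range.

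Within the hypoxia classes the libraries hardly differed in the sum, and among the members Tyr stood out in high-hypoxia cells only. In low-hypoxia cells the 10 genes summed to 14922 CPM in control and 14815 CPM in treated cells, a ratio of 0.993 (0.987 to 0.998). In high-hypoxia cells they summed to 17167 and 17126 CPM, a ratio of 0.998 (0.992 to 1.00). When both libraries were given the control mix of high-hypoxia and low-hypoxia cells, the log2 ratio of the sum was -0.01, against -0.05 without that weighting. Tyr was 1.12 times (1.05 to 1.20) higher in low-hypoxia treated cells and 1.62 times (1.51 to 1.73) higher in high-hypoxia treated cells. In low-hypoxia cells Mitf, at a ratio of 1.11 (1.07 to 1.15), and Slc45a2, at 0.900 (0.869 to 0.931), differed about as much as Tyr. In the high-hypoxia cells 0.0258% of 7747 genes, namely Tyr and the collagen gene Col9a1, were higher by at least 1.5-fold in the treated library; Col9a1 is named after its value was seen.

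The Tyr difference in high-hypoxia cells was spread over many cells. After thinning, a Tyr UMI was in 42.4% of 233 control high-hypoxia cells (36.1 to 49.1) and in 56.1% of 236 treated ones (49.4 to 62.4). In low-hypoxia cells the shares were 43.9% (35.5 to 52.3) and 50.4% (44.9 to 56.0). The 10 cells richest in Tyr held 21.3% of its UMIs in control and 16.7% in treated high-hypoxia cells, and without them Tyr was at 70.4 and 122 CPM. Over 5 UMIs per 10000 of leukocyte RNA was found in 17.0% of control and 5.26% of treated high-hypoxia cells. Without such cells the log2 ratio of Tyr between libraries was 0.58 against 0.63, and without cells holding a Ptprc UMI it was 0.54, both short of 1.5-fold. With thinned cells it was 0.57, also short. Of 11 alternatives, 5 kept it at 1.5-fold or more and it was positive in all 11.

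A wider list of 60 pigment cell genes (melanosome transport, biogenesis, ion transport, and factors and targets of the lineage) had 46 members at 10 CPM or more. Of these, 22 were higher and 24 lower in treated melanoma cells, with a median log2 ratio of -0.01, where 59.9% of all genes measured were higher and their median was 0.03. One passed 1.5-fold, Cited1, a transcriptional coregulator, which was lower. It had 243 CPM (237 to 248) in control and 127 CPM (124 to 131) in treated cells, a ratio of 0.524 (0.505 to 0.543). That is 1 of 46, where 1.34% of all genes measured were lower by that much. Cited1 was also tied to hypoxia gene level, with 116 CPM in low-hypoxia and 335 CPM in high-hypoxia control cells and 65.0 and 233 CPM in treated cells. In each hypoxia class it was thus lower in the treated library. Between hypoxia classes 3 more genes of the list were at least 1.5-fold higher in both libraries and none was lower: the calcium-binding proteins S100b (79.2 to 147 CPM in control, 81.4 to 161 in treated cells) and S100a1 (177 to 318 and 158 to 295), and the transcription factor Tfap2a (44.3 to 80.1 and 39.5 to 67.0). With Cited1 that is 4 of 46, where 2.14% of 7774 genes were higher and 2.59% lower by that much. The list's median log2 ratio between hypoxia classes was 0.06 in control and 0.05 in treated cells, against -0.09 and -0.08 over all genes.

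Of 11 markers of dedifferentiated melanoma cells, 4 were at 10 CPM or more. The cytoskeletal gene Vim had 3959 and 3463 CPM, a ratio of 0.875 (0.868 to 0.882). The receptor kinase Axl had 21.6 and 13.1 CPM, a ratio of 0.606 (0.539 to 0.680), Fn1 39.7 and 32.2 CPM, and Nes 30.2 and 28.2 CPM. All 4 were lower in the treated library, where 40.1% of the 7839 genes measured were lower by any amount. None passed 1.5-fold after 10 CPM was added, where 1.35% of all genes measured did in either direction. Leukocytes also transcribe some of these genes, Vim and Axl among them. Ngfr was at 0.128 and 0.0758 CPM, and Sox2, Egfr and Tnc had no UMI in any melanoma cell.

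Pigment gene RNA was also found in leukocyte droplets, at a level near 1% of that in melanoma cells. The 9 genes without Mitf had 112 CPM (110 to 115) in control and 115 CPM (112 to 118) in treated leukocytes, which is 0.706% and 0.751% of their level in melanoma cells. Cells with 20 or more UMIs of the rule genes are not among the leukocytes, so these levels have an upper bound by construction. Over all leukocytes the CPM ratio between libraries was 1.03 (0.992 to 1.06). None of the 4 members at 10 CPM or more besides Mitf (Dct, Pmel, Mlana and Tyrp1), nor Mitf, passed 1.5-fold, where 0.859% of 7454 genes did. Counted per cell, the 9 genes had 1.39 (1.36 to 1.43) UMIs per control and 1.11 (1.08 to 1.13) per treated leukocyte, a ratio of 0.793 (0.768 to 0.819). Over all leukocytes the direction thus depended on the scale, and the treated leukocytes held fewer UMIs in all. The CPM ratio also differed between classes, at 1.11 (1.03 to 1.18) in T cell-like clusters and 0.952 (0.912 to 0.993) in macrophage- and monocyte-like clusters, called phagocyte-like from here on.

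The 9 genes stood to each other in leukocytes nearly as in melanoma cells. Of their UMIs in T cell-like clusters, Dct took 36.0% (33.9 to 38.2) in control and 36.0% (33.6 to 38.4) in treated cells, against 35.5% and 35.6% in melanoma cells. Pmel took 28.9% (26.9 to 31.0) and 27.5% (25.3 to 29.8), against 29.6% and 28.5%. Mlana took 19.3% in both, against 18.5% and 19.1%, and Tyrp1 12.2% and 13.7%, against 12.4% and 12.7%. All 8 of these shares had intervals that held the melanoma share of the same library. Slc45a2 fell below its melanoma share over all leukocytes, at 1.62% (1.35 to 1.93) in control and 1.73% (1.44 to 2.06) in treated cells against 2.40% and 2.33%. In phagocyte-like clusters Pmel took 31.2% (29.8 to 32.6) in control cells, just above its melanoma share, and 29.4% (28.0 to 30.9) in treated cells, an interval that held it.

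The amount per droplet went up with the depth of the droplet, by a smaller factor than the depth itself. From the shallowest to the deepest of 4 equal ranges of control leukocytes, the median total went from 4049 to 23897 UMIs and the 9 genes from 0.913 (0.863 to 0.965) to 2.13 (2.06 to 2.21) UMIs per cell. In treated leukocytes they went from 0.813 to 1.58 UMIs per cell while the median total went from 3174 to 18376. On the CPM scale the same cells went the other way, from 242 to 81.1 CPM in control and from 274 to 78.5 CPM in treated leukocytes. Neutrophil-like cells, with medians of 1814 and 1434 UMIs, had 516 and 491 CPM, the highest of the named classes, but 1.12 (0.865 to 1.43) and 0.785 (0.653 to 0.936) UMIs per cell, no more than other leukocytes. A CPM value of these genes in a shallow class is thus high without more molecules per cell.

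**Figure D4:**
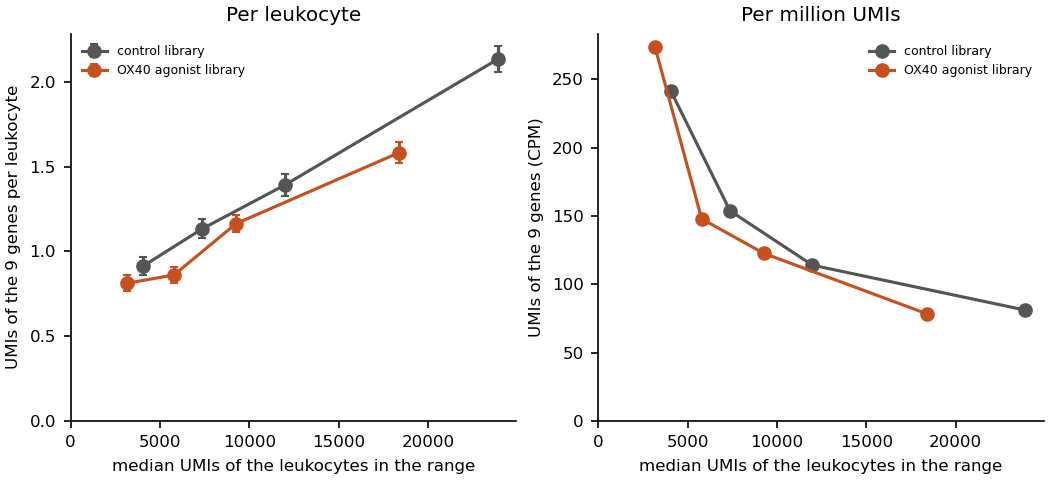
UMIs of the 9 pigment genes without Mitf per leukocyte (left, with exact Poisson 95% intervals) and in CPM (right) against the median depth of 4 equal ranges of leukocytes, by library. Per cell the values go up from 0.913 to 2.13 in control leukocytes, while in CPM they go down from 242 to 81.1.

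At matched depth, phagocyte-like cells held more pigment gene RNA than T cell-like cells. Among cells with 10000 to 20000 UMIs, the 9 genes had 1.93 (1.82 to 2.04) UMIs per phagocyte-like and 1.10 (1.01 to 1.19) per T cell-like cell in control, at medians of 13815 and 13967 UMIs. In treated cells these were 1.66 (1.57 to 1.75) and 1.02 (0.925 to 1.12). Among cells with 5000 to 10000 UMIs the values were 1.25 (1.18 to 1.32) and 0.937 (0.857 to 1.02) in control and 1.10 (1.04 to 1.16) and 0.8 (0.723 to 0.883) in treated cells. The order was the same in both depth ranges and both libraries. Treated cells of both classes had the lower values, with intervals apart for phagocyte-like and overlapping for T cell-like cells. They were lower in CPM too. In the shallower range control and treated phagocyte-like cells had 167 and 156 CPM and T cell-like cells 132 and 112 CPM. In the deeper range these were 136 and 117 CPM and 77.2 and 73.1 CPM. Mature dendritic-like cells lay between these classes. In control they had 1.775 (1.478 to 2.113) UMIs per cell in the deeper and 1.11 (0.921 to 1.32) in the shallower range. Both intervals overlapped those of phagocyte-like cells. In treated cells they had 1.18 (0.966 to 1.43) and 0.884 (0.768 to 1.01), below phagocyte-like cells. In the shallower control range NK-like and type 2 dendritic-like cells, at 1 (0.823 to 1.20) and 1.10 (0.883 to 1.35), overlapped too. Whether the phagocyte-like cells had taken up melanoma cells or shared droplets with them was not tested.

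Mitf stood apart from the other 9 in phagocyte-like cells, and macrophages are known to transcribe it. It had 27.4 CPM (25.7 to 29.3) in control and 27.7 CPM (25.9 to 29.6) in treated phagocyte-like cells, from 897 and 890 UMIs. That is 8.03% and 7.37% of its level in melanoma cells, while the other 9 stood at 0.840% and 0.831% of theirs. In T cell-like cells Mitf had 1.96 CPM (1.43 to 2.64) and 2.40 CPM (1.72 to 3.27), or 0.575% and 0.639% of its melanoma level. For every 100 UMIs of the other 9 genes there were 2.15 and 2.46 Mitf UMIs in melanoma cells, 2.29 (1.67 to 3.08) and 2.54 (1.81 to 3.45) in T cell-like cells, and 20.5 (19.2 to 21.9) and 21.8 (20.4 to 23.3) in phagocyte-like cells. The T cell-like intervals held the melanoma value and the phagocyte-like ones did not. Leukocytes outside the phagocyte-like clusters, unnamed clusters included, had 3.40 (2.80 to 4.09) in control and 3.56 (2.91 to 4.31) in treated cells. These rest on 111 and 104 Mitf UMIs, and both intervals lay above the melanoma value. A Mitf excess was thus not limited to phagocyte-like cells, where it was larger. Between libraries Mitf in phagocyte-like cells had a ratio of 1.01 (0.920 to 1.11), within counting error.

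**Figure D5:**
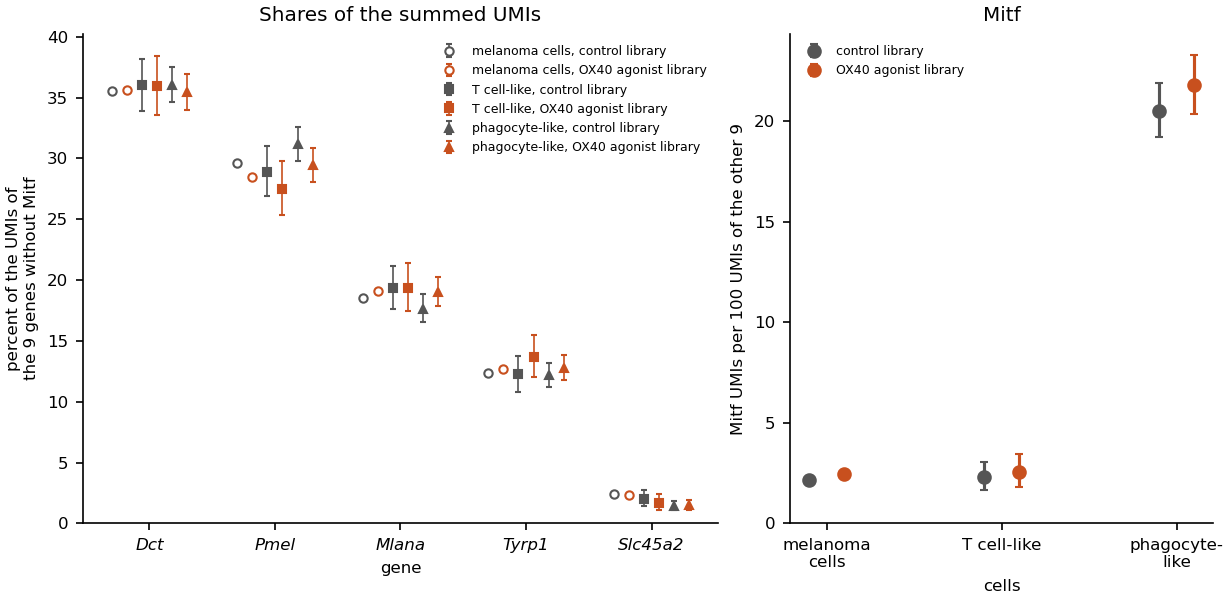
Left, share of the summed UMIs of the 9 genes without Mitf taken by 5 of them, in melanoma cells, T cell-like cells and phagocyte-like cells of each library; right, Mitf UMIs per 100 UMIs of the other 9. Bars are 95% intervals (exact binomial left, exact Poisson right). The shares lie close together for the 4 larger genes, and Mitf lies at 20.5 and 21.8 in phagocyte-like cells against 2.15 and 2.46 in melanoma cells.

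Mitf was also found in phagocyte-like cells that held no UMI of the other 9 genes. There were 712 such control and 1098 treated cells, with medians of 7231 and 6369 UMIs. Mitf had 24.2 CPM (20.5 to 28.3) and 25.4 CPM (22.2 to 28.9) in them, and 17.0% and 16.3% had a Mitf UMI. T cell-like cells of the same kind, 692 and 767 with medians of 7892 and 6124 UMIs, had 2.22 CPM (1.27 to 3.60) and 2.01 CPM (1.07 to 3.43), and 2.31% and 1.57% of them had a Mitf UMI.

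Mitf differed between phagocyte-like clusters. It was highest in the cluster led by Pf4 and Cxcl3, at 41.0 CPM (34.0 to 49.1) in control and 38.2 CPM (32.8 to 44.3) in treated cells, and in that led by Inhba and Hspa1b, at 37.3 and 37.2 CPM. The cluster led by Fcrls and Gas6 had 35.9 (30.3 to 42.3) and 28.0 (24.9 to 31.3) CPM. It was lower in the cluster led by Hp and Chil3, monocyte genes, at 15.5 (10.6 to 21.9) and 11.3 (6.82 to 17.7) CPM. The lowest was the cluster led by Ace and Adgre4, genes of nonclassical monocytes, at 5.50 (1.79 to 12.8) and 8.56 (3.14 to 18.6) CPM from 5 and 6 UMIs. There Mitf stood at 3.38 and 4.84 per 100 UMIs of the other 9, near the melanoma value, against 27.4 and 26.3 in the cluster led by Pf4. The other 3 phagocyte-like clusters had between 21.7 and 34.2 CPM. The intervals of the clusters led by Hp and by Ace lay below those of the clusters led by Pf4, Inhba and Fcrls in both libraries. The clusters were formed on these cells, with the 10 pigment genes left out of the genes that defined them.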

How the data were processed

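The deposited matrices hold UMI counts per gene and barcode. They were made by the authors with Cell Ranger on mm10, per the submitters' processing notes; version 3.1.0 is given in the file headers. Filters on genes or barcodes before deposit are not given in the sources used here.

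Barcodes with at least 500 UMIs, 200 genes and at most 10% mitochondrial UMIs were kept (6354 and 7500). The highest doublet scores, computed per library as Scrublet defines them, were removed at 0.8% per 1000 barcodes (365 and 514, of which 51 and 81 met the melanoma rule). Other cells were clustered on both libraries together (Leiden, leidenalg 0.10.2) without the 10 pigment genes and named from marker lists. The scoring rule was set after the clusters were seen, so names are "-like". A low-count cluster (103 and 55 cells) and unnamed clusters (242 and 135 cells, kept among all leukocytes) stayed apart.

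Levels are summed UMIs scaled to 1000000. With 1 library per group no test was made. Intervals are exact at 95%: Poisson for counts, conditional for ratios, Clopper-Pearson for shares. Log2 ratios add 10 CPM. A gene was called at 1.5-fold. Thinned values are exact means over all possible draws, and their intervals use the expected number of cells. Sums, ratios and thinning were tested on simulated data. All 10 members are named, of the wider list those past 1.5-fold (at most 4 each way), and by likeness 8 genes most alike and 4 most opposed; a few genes these rules name are not reported here. The members and lists were chosen with earlier results of these data known. Positions are from GENCODE M21, matched by gene ID. Python 3.11.15, numpy 2.4.6 and scipy 1.17.1 were used.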

Additional observations from a re-analysis of the deposited data

Results flagged for a closer look

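Tyr was higher with hypoxia gene level in the treated library and slightly lower in the control library. The log2 ratios of high-hypoxia over low-hypoxia melanoma cells were 0.35 in treated and -0.13 in control cells. With 1 library per group this difference was not tested. The control value lay closer to 0 with thinned cells (-0.06) and further from it when the library was split at its own median (-0.41).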

How the results depend on the processing

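No paired analysis was possible because each group has 1 library and the labels give no replicate numbers. The summed members between libraries, at a log2 ratio of -0.05 in melanoma cells, stayed negative in all 11 alternatives. They were at -0.0706 with a 5% mitochondrial limit, -0.0812 as a mean over cells, -0.0590 with cells thinned to 10000 UMIs, -0.0574 with at most 5 leukocyte UMIs per 10000 (an alternative chosen after seeing the data) and -0.00614 with the control mix of hypoxia classes. Between hypoxia classes the control value of 0.20 was 0.13 without a Ptprc UMI, 0.19 without doublet removal or as a mean over cells, 0.16 with at most 5 leukocyte UMIs per 10000, 0.14 split at the library's own median, 0.21 with thinned cells and 0.21 for the highest against the lowest hypoxia gene levels with the middle range left out. The treated value of 0.21 was 0.23 with a 5% mitochondrial limit, 0.23 with thinned cells, 0.16 split at the library's own median and 0.23 for the highest against the lowest levels. In leukocytes the value of 0.04 was 0.10 as a mean over cells, -0.00437 with the control class mix and -0.32 as UMIs per cell (chosen after seeing the data). The median of the wider list stayed between -0.02 and 0.01 in all 11 alternatives. For single genes, 12 of 394 values changed sign. Depth limits Oca2 and Gpr143 in melanoma cells and every member but Dct, Pmel, Mlana, Tyrp1 and Mitf in leukocytes. Without replicate libraries, animal, preparation and treatment cannot be told apart.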

Other observations

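A cluster of droplets with few UMIs (103 control and 55 treated, led by Cryab, Sparc, Rhox5 and Mlana) fell below the melanoma rule and held the pigment genes in other proportions. Mlana took 42.1% (38.4 to 45.8) of the UMIs of the 9 genes in control and 35.9% (31.4 to 40.6) in treated droplets, against 18.5% and 19.1% in melanoma cells. Pmel took 12.5% (10.2 to 15.2) and 14.5% (11.3 to 18.2), against 29.6% and 28.5%. Dct, at 30.6% and 34.0%, was closer to its share in melanoma cells. Mitf had 6.63 (4.85 to 8.84) UMIs per 100 of the other 9 in control droplets, above the 2.15 of melanoma cells, and 3.68 (2.10 to 5.97) in treated droplets. The droplets lie under a limit on the UMIs of Pmel, Mlana and Dct together, and so do the leukocytes. In control and treated leukocytes Mlana took 18.3% and 19.5%, and Pmel 30.6% and 28.2%. Whether the limit shaped the proportions in the droplets was not tested, and the intervals cover counting error only.

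Some genes of Schwann cells, which share the neural crest origin of pigment cells, were also present in melanoma cells. Mbp had 213 and 252 CPM and Cdh19 17.2 and 21.3 CPM in control and treated cells.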
